A study of Mus musculus with 3 samples.

Results

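Kit, Flt3, Cd34, Ly6a, Meis1 and Mecom, 6 genes that mark or maintain blood stem and progenitor cells, were examined among 21851 protein-coding genes for accessible chromatin in and around them. They were chosen by name, and for each gene every peak was taken that lay within 1000 bp of a protein-coding start, inside the gene, or within 150 kb of either end of it. In biological replicate 1 these windows held 458 of 281600 peaks, and in biological replicate 2 they held 145 of 89046.

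The chromatin came from MEL cells, an immortalized mouse erythroleukemia line that resembles an early red cell precursor, and the labels give 1 condition and name no treatment. DNase I cuts DNA where chromatin is open, and a peak marks a short stretch where sequenced cut ends pile up. There were 3 libraries, of which 2 were merged by the authors into the replicate 1 list and 1 gave the replicate 2 list. Because each biological replicate has 1 list, values are described without a test or p-value.

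KIT and FLT3 are receptor tyrosine kinases for growth factors of blood cells, and KIT also supports early red cell precursors and mast cells. CD34, a sialomucin, and the GPI-anchored protein SCA-1, encoded by Ly6a, are surface proteins used to sort stem and progenitor cells. MEIS1, a homeodomain partner of HOX proteins, and the zinc finger protein encoded by Mecom are transcription factors that maintain stem cells and that leukemias often activate.

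Each peak carries a whole-number score from 1 to 150 given by the authors, and the sources used here do not say what it counts. Scores are used to rank peaks within a list and are not compared between the lists, because replicate 1 had the higher score at every shared window peak and scores are compressed near 150. The score pairs below give replicate 1 first. All positions are in GRCm38, the build also called mm10, and distances run from the nearest annotated protein-coding start of the gene named.

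Sequences under some of the highest replicate 2 peaks of each window are shown first, because most peaks around these genes lay away from their starts. The highest peak is included for every window except that of Ly6a. The lower peaks of Flt3 (scores 68 and 71), Ly6a (40), Mecom (64) and the Kit intron (52) were picked after their values were seen, to show a motif match, so the set does not represent how often matches occur. All are printed from the plus strand of GRCm38, 5′ to 3′, over the 150 bases of the replicate 2 peak. Capitals mark every match, on either strand, to the word GATAA, which GATA factors can bind, unless another mark is named.
Kit, 114 kb upstream, chr5:75460616-75460765: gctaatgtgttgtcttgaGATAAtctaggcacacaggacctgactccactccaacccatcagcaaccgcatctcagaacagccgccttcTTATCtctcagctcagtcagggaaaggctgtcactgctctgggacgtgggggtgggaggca
Kit, 187 kb downstream of the start, chr5:75762016-75762165: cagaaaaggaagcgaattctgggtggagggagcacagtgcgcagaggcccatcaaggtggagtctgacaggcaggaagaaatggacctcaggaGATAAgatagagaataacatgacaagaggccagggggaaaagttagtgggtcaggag
Cd34, intron 1, chr1:194943636-194943785: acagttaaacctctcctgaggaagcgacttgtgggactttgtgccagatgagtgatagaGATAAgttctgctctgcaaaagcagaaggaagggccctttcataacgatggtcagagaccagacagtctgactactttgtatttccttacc
Meis1, intron 8, chr11:18924996-18925145: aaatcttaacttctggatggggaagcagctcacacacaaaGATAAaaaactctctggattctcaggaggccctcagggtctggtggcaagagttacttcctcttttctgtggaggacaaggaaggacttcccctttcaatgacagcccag
Meis1, 137 kb upstream, chr11:19155736-19155885: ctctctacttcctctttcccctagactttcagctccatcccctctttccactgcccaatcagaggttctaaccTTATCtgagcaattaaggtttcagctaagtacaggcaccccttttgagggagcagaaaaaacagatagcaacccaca
Meis1, intron 7, chr11:18970036-18970185: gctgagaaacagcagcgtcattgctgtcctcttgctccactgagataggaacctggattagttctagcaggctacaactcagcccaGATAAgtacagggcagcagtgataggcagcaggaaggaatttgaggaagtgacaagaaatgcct
Kit, intron 7, capitals for CTG followed by 7 to 9 bases and GATA, chr5:75624376-75624525: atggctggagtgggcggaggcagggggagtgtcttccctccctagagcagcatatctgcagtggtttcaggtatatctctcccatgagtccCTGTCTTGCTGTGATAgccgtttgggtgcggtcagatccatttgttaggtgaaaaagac
Flt3, 70.9 kb upstream, no match to mark, chr5:147471336-147471485: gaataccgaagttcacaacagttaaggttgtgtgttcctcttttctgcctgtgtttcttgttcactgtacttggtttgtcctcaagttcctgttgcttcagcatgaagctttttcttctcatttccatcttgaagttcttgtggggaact
Flt3, 18.1 kb upstream, capitals for the ETS word AGGAAG, chr5:147418496-147418645: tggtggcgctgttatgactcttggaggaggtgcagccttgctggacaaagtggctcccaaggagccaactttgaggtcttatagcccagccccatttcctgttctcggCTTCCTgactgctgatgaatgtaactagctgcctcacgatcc
Flt3, 107 kb downstream of the start, capitals for the CTCF consensus, chr5:147293236-147293385: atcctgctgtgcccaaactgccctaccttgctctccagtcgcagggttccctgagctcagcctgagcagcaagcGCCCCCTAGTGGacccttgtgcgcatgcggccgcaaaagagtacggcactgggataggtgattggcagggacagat
Ly6a, 74.0 kb downstream of the start, capitals for the CTCF consensus, chr15:74923556-74923705: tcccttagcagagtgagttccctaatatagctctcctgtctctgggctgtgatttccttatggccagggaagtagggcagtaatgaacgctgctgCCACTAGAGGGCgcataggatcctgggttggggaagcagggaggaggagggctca
Meis1, start site, no match to mark, chr11:19018936-19019085: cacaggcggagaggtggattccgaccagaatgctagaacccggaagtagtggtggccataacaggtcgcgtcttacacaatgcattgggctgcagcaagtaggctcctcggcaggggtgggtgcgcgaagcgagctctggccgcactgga
Mecom, 91.7 kb upstream, at the Mynn promoter, chr3:30601316-30601465: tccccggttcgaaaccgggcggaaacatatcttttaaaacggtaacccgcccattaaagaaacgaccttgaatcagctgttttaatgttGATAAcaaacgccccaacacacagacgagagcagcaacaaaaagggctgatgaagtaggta
Mecom, 174 kb upstream, chr3:30683336-30683485: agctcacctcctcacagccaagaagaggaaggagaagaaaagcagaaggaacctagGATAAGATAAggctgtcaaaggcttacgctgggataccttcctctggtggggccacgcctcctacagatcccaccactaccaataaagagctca
A match describes letters and is not evidence that a factor was bound.

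Of the 6 genes, Meis1 alone had a peak within 1000 bp of a protein-coding start, in either list. The background was high, since 58.3% of all protein-coding genes had such a peak in replicate 1 and 49.4% in replicate 2. Peaks inside the gene were present for all 6 genes in replicate 1 and for 5 in replicate 2, where Ly6a had none. The background for that measure was 74.6% and 57.9% of genes. Widening the promoter to 2500 bp gave 5 of the 6 genes a peak in replicate 1, where 66.2% of all genes had one, and 2 of 6 in replicate 2, where 54.5% did. The gene that stayed without a nearby peak in replicate 1 was Kit, and the genes with one in replicate 2 were Meis1 and Flt3.

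**Figure D1:**
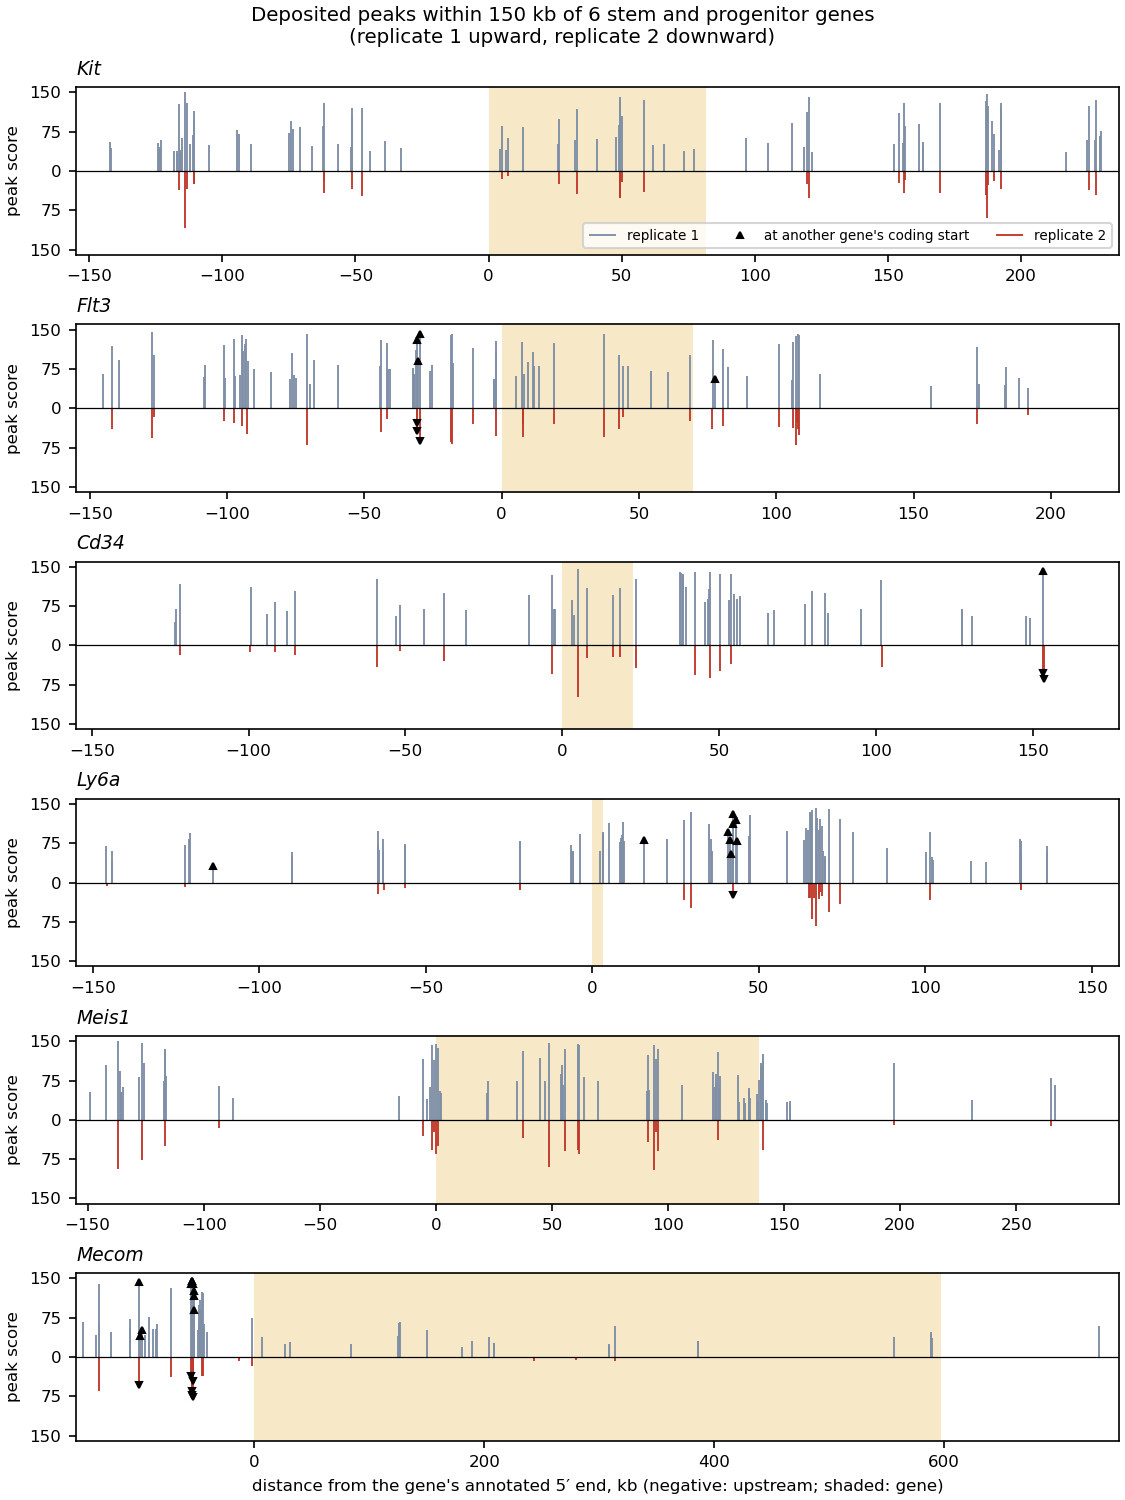
Peak scores along the 6 gene windows. The horizontal axis is the distance in kb from the annotated 5′ end of the gene, which for Mecom lies upstream of its first protein-coding start, and the vertical axis is the deposited score, replicate 1 upward and replicate 2 downward. Shading marks the gene, and black triangles mark peaks at another gene's protein-coding start. Kit shows no peak at its start and its highest replicate 2 score, 109, far upstream, while Meis1 shows peaks at its start and through the gene body.

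Kit (ENSMUSG00000005672.12, chr5:75574916-75656722, plus strand) spans 81.8 kb. Its window held 91 peaks in replicate 1 and 30 in replicate 2, and all 30 were overlapped by a replicate 1 peak. No peak and no hotspot, the broader region of signal that the authors called separately, lay within 1000 bp of either of its 2 protein-coding starts. The closest peaks were in intron 1, 4395 bp from a start in replicate 1 with a score of 43, and 4995 bp in replicate 2 with a score of 16.

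The start of Kit is rich in GC and CpG, and its sequence is fully unique in 32-base words. No reads were used here, so how well reads were recovered there was not tested. GC content over the 1000 bp around the starts was 65.0% and 66.3%, and the observed CpG count was 0.675 and 0.684 of that expected from the base composition. Every 32-base word there occurs once in chromosomes 1 to 19, X and Y. Among 6048 genes with a start of at least 60% GC and a CpG ratio of at least 0.6, 78.3% had a promoter peak in replicate 1 and 71.5% in replicate 2. Flt3 belongs to the same class and also had none. The RefSeq promoter of Kit on GRCm38.p6, from 250 bases before to 50 after its RefSeq start, shows this CpG-rich sequence, with each of its 20 CG pairs in capitals.
Kit promoter, plus strand, chr5:75574737-75575036: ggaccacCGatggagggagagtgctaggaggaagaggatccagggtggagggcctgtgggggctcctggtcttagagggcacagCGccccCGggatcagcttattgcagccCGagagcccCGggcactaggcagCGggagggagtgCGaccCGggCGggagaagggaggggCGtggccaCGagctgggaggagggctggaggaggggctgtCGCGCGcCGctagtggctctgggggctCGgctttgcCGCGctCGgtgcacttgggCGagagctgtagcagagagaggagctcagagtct

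The strongest Kit peak lay 114 kb upstream of the gene at chr5:75460616-75460765, in sequence with no annotated gene. It scored 150 in replicate 1, the top of the scale, and 109 in replicate 2, above 99.6% of that list. A distal enhancer bound by GATA factors at about this distance upstream of Kit is known from work on red cell precursors. The peak held 2 GATAA matches, at bases 19 and 90 of the sequence shown above, and 1 match to CTG followed by 7 to 9 bases and GATA, the spacing at which GATA and TAL1 complexes can bind. Its hotspot was 996 bp wide in replicate 2. The same list had 4 weaker peaks between 111 and 116 kb upstream, with scores of 24 to 37.

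Far from any gene start, few peaks of either list scored as high. Of 10451 replicate 2 peaks over 100 kb from every protein-coding start, 6 scored 109 or more, this peak included, and their median was 22. In replicate 1, 29 of 40274 such peaks reached 150, and those 29 included this Kit peak and a Meis1 peak described below. The Kit peak 187 kb downstream of the start, at chr5:75762016-75762165, scored 148 and 89, and 132 of the far replicate 2 peaks, itself included, scored at least as high. It belonged to a hotspot of 1269 bp in replicate 2 that also held peaks of 45 and 26.

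Inside Kit the replicate 2 list had 8 peaks, with scores of 10 to 52. The highest were a neighbouring pair in intron 7, 49.5 kb and 49.3 kb from the start, which scored 142 and 52, and 133 and 52. A peak in the same intron 58.5 kb from the start scored 135 and 40, and one in intron 2 scored 118 and 44. Another peak of score 52, with 142 in replicate 1, lay 120.4 kb from the start, downstream of the gene. The highest gene body score in replicate 2, 52, was thus below those of the peaks 114 kb upstream and 187 kb downstream of the start, 109 and 89. Median replicate 2 scores were similar, at 32.5 in the gene, 34 upstream of it and 36 downstream. No other protein-coding gene overlapped the window, and the nearest start was that of Kit for 83 of 91 peaks in replicate 1 and 28 of 30 in replicate 2.

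Flt3 (ENSMUSG00000042817.15, chr5:147330741-147400489, minus strand) spans 69.7 kb and has 1 protein-coding start. Its window held 85 peaks in replicate 1 and 34 in replicate 2, of which 31 were shared. The nearest peaks to its start were upstream, 1961 bp away in replicate 1 with a score of 107, and 2221 bp away in replicate 2 with a score of 53. Over the 1000 bp around the start GC content was 60.8%, the CpG ratio was 0.719 and all words were unique.

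Most peaks of the Flt3 window lay closer to the start of another gene. The nearest start was that of Flt3 for 15 of 85 peaks in replicate 1 and 6 of 34 in replicate 2. The highest replicate 2 scores, 71 each, fell in an intron of Pan3, which encodes a subunit of a deadenylase complex, 70.9 kb upstream of Flt3, and 107 kb downstream of the Flt3 start near Cdx2. The peak near Cdx2, which encodes an intestinal homeodomain factor, held a CTCF consensus match. Cdx2, Pdx1 and Gsx1 had no promoter peak, while the Pan3 promoter scored 142 and 63. A pair of peaks 18.1 kb and 18.5 kb upstream of Flt3 scored 141 and 68, and 139 and 64, and both were closer to Pan3. Within Flt3 the replicate 2 list had 7 peaks with scores of 17 to 55, the highest in introns 1 and 9. Among peaks nearest to the Flt3 start, outside promoters, the highest scored 142 and 55.

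Cd34 (ENSMUSG00000016494.9, chr1:194938819-194961279, plus strand) spans 22.5 kb. Its window held 55 peaks in replicate 1 and 20 in replicate 2, and all 20 were shared. Neither of its 2 starts had a peak within 1000 bp. The nearest peaks were upstream, 2169 bp away in replicate 1 with a score of 69, and 3209 bp away in replicate 2 with a score of 55. The CpG ratio at these starts was 0.471 and 0.485, and in the class of 3038 genes with a ratio from 0.4 to 0.6 a promoter peak was present for 58.6% in replicate 1 and 48.6% in replicate 2.

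The strongest Cd34 peak lay in intron 1, 4835 bp from the start, at chr1:194943636-194943785. It scored 146 in replicate 1 and 99 in replicate 2, above 98.8% of that list, and held 1 GATAA match. The other 3 replicate 2 peaks inside the gene scored 22 to 24. Downstream of the gene, within the long noncoding genes A330023F24Rik and Gm32250, lay peaks of 57, 63, 48 and 35, from 42.3 kb to 53.8 kb beyond the start. The promoter of Cd46, a complement regulator at the far end of the window, scored 142 and 64.

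A stretch downstream of Cd34 was strong in replicate 1 and empty in replicate 2. From 37.4 kb to 38.6 kb beyond the start, inside 1 replicate 1 hotspot of 2486 bp, lay peaks of 140, 139, 137 and 132. No replicate 2 hotspot touched them, and the closest replicate 2 peak was between 3660 and 4820 bp away. Their sequence was fully unique. The 4 peaks lay in exons or introns of the genes Gm16897 and A330023F24Rik. Those of 140 and 139 were in exons and had 69.3% and 68% GC. The same hotspot held another peak, of 111, with no overlapping replicate 2 peak. Across the 6 windows, 7 of the 66 replicate 1 peaks that scored 130 or more had no overlapping replicate 2 peak, or 10.6%, against 4.63% of the 31966 such peaks in the whole list. Of these 7, 4 came from this 1 hotspot, 2 from the Ly6a window and 1 from Meis1. The Meis1 peak and 1 of the Ly6a peaks lay under a replicate 2 hotspot. Their nearest replicate 2 peaks were 260 bp and 320 bp away, with scores of 65 and 69, so these sites were not empty in replicate 2. At a minimum score of 100 the shares were 25.9% and 24.3%, so the gap rested on few peaks. The minimum score was chosen after the values were seen, and no test was run. Whether the stretch differed between the cultures or between the libraries cannot be told apart.

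Ly6a (ENSMUSG00000075602.10, chr15:74994877-74998031, minus strand) is short, at 3155 bp, and belongs to a cluster of related genes. Its window held 84 peaks in replicate 1 and 24 in replicate 2, of which 22 were shared. The only peak inside the gene was in replicate 1, 2044 bp from a start, with a score of 60, and the closest replicate 2 peak was 21699 bp upstream with a score of 15. Uniqueness limits these values. Between 29.7% and 37.5% of 32-base words were unique over the 1000 bp around its 5 starts, and 65.8% over the window, against 86.6% to 94.3% for the other 5 windows. Reads from repeated sequence may be lost, so an open Ly6a promoter could have gone undetected. Its CpG ratio, 0.060 to 0.088, placed it among 4863 genes with a ratio under 0.2, of which 23.4% had a promoter peak in replicate 1 and 11.4% in replicate 2.

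High scores in the Ly6a window belonged to sites nearer to other genes. The highest replicate 2 score, 82, with 142 in replicate 1, lay 66.7 kb downstream of the start in the noncoding gene Gm39556, whose nearest protein-coding start was that of Ly6e. Peaks of 69 and 57 lay at 65.8 kb and 70.8 kb, and a peak of 49 lay at 29.2 kb. Of the 24 replicate 2 peaks, 11 fell between 64.9 kb and 74.0 kb, a dense group with scores of 18 to 82. The Ly6e promoter scored 131 and 24, while Ly6i scored 81 and Ly6c2 scored 31 in replicate 1 alone, and Ly6c1 had no promoter peak. Of the peaks nearest to a Ly6a start, the highest scored 113 in replicate 1 and 15 in replicate 2.

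Meis1 (ENSMUSG00000020160.18, chr11:18879817-19018985, minus strand) spans 139 kb. Its window held 80 peaks in replicate 1 and 22 in replicate 2, and all 22 were shared. Each list had 3 promoter peaks. The replicate 2 peaks lay 25 bp upstream of a start, 564 bp inside the gene and 725 bp upstream, with scores of 65, 50 and 23, and the overlapping replicate 1 peaks scored 145, 137 and 115. GC content around its 4 starts was 49.4% to 50.3% with a CpG ratio of 0.651 to 0.683, in the class of 10379 genes with a ratio of at least 0.6, of which 81.2% and 75.9% had a promoter peak.

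Scores in the body of Meis1 and far upstream exceeded those at its start in replicate 2. Intron 8 held a peak of 143 and 95, at chr11:18924996-18925145, and intron 7 a peak of 147 and 91, at chr11:18970036-18970185. The far upstream peaks, at chr11:19155736-19155885 and chr11:19145396-19145545, lay 137 kb and 126 kb from the start and scored 150 and 94, and 147 and 76. All 4 held a single GATAA match, whereas the start site peak held none. The gene held 43 peaks in replicate 1 and 11 in replicate 2, or 30.9 and 7.90 per 100 kb. Among 2484 genes of at least 100 kb, 95.3% and 87.0% had a lower density inside the gene, against medians of 11.2 and 3.14. No other protein-coding gene overlapped the window, and the nearest start was that of Meis1 for every peak in it.

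Mecom (ENSMUSG00000027684.16, chr3:29951296-30548008, minus strand) spans 597 kb and has 6 protein-coding starts, which serve a long form with a PR domain and shorter forms without it. Its window, although the longest, held 63 peaks in replicate 1 and 15 in replicate 2, of which 12 were shared. None of the starts had a peak or hotspot within 1000 bp, although the one at the 5′ end has a CpG ratio of 0.646 and falls in the same class as Meis1. Inside the gene were 27 peaks in replicate 1 with scores of 20 to 66, and 3 in replicate 2 with scores of 6, 8 and 8. The closest peak to a start in replicate 1 was 1131 bp away with a score of 23.

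Peak density inside Mecom was 4.53 per 100 kb in replicate 1 and 0.503 in replicate 2. Among the 2484 genes of at least 100 kb, 30.1% and 20% had a lower density. Among 230 genes of at least 500 kb, 69.1% and 45.7% did, with medians of 2.18 and 0.576, so Mecom was above that median in replicate 1 and below it in replicate 2. All 5 of the highest replicate 2 scores in the window lay beyond the gene, at or near Mynn, Lrrc34, Lrriq4 and Lrrc31. The Mynn promoter scored 146 and 77, and the start shared by Lrrc34 and Lrriq4 scored 144 and 54. An exon of Lrrc31 174 kb upstream of the first Mecom coding start scored 140 and 64 and held 2 adjoining GATAA matches. The nearest start was that of Mecom for 4 of the 15 replicate 2 peaks, with a highest score of 17 outside promoters.

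Side by side, peak density did not set the 6 genes apart from other genes. Replicate 1 densities over the whole window were 27.7 peaks per 100 kb for Ly6a, 23.8 for Kit, 22.99 for Flt3, 18.2 for Meis1, 17.1 for Cd34 and 7.03 for Mecom. In replicate 2 they were 9.20 for Flt3, 7.92 for Ly6a, 7.86 for Kit, 6.20 for Cd34, 5.01 for Meis1 and 1.67 for Mecom. The medians over all genes were 20.2 and 6.63, and apart from Mecom each gene had between 38.8% and 71.2% of all genes below it. Mecom was lower, with 20.6% and 19.6% of genes below it. Kit, Flt3 and Ly6a changed places between the lists, as did Cd34 and Meis1, so their order is not fixed by these data.

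The strongest distal site ranked highest for Kit and Meis1 in replicate 1, and for Kit, Cd34 and Meis1 in replicate 2. Each peak outside promoters was assigned to the gene with the nearest start, and the highest score was taken. Only peaks in the gene or within 150 kb of it counted. Genes with no such peak stayed in with the lowest value, which lowers the medians and raises the ranks below. The number of such genes is not given here. In replicate 2 it was 109 for Kit, 99 for Cd34 and 95 for Meis1, and 99.4%, 98.2% and 97.1% of genes had a lower value. Flt3 had 55, above 75.5% of genes, while Mecom with 17 and Ly6a with 15 lay below the median of 27. Among 9109 genes with no promoter peak in either list, whose median was 8, Kit stood above 99.8% and Cd34 above 99.3%. Replicate 1 placed Kit and Meis1 at 150, above 99.0% of genes each, Cd34 at 146, above 90.5%, Flt3 at 142, above 82.5%, Ly6a at 113 and Mecom at 75, against a median of 113. Genes with long intergenic flanks are assigned more peaks, and the part of that in these ranks was not tested.

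**Figure D2:**
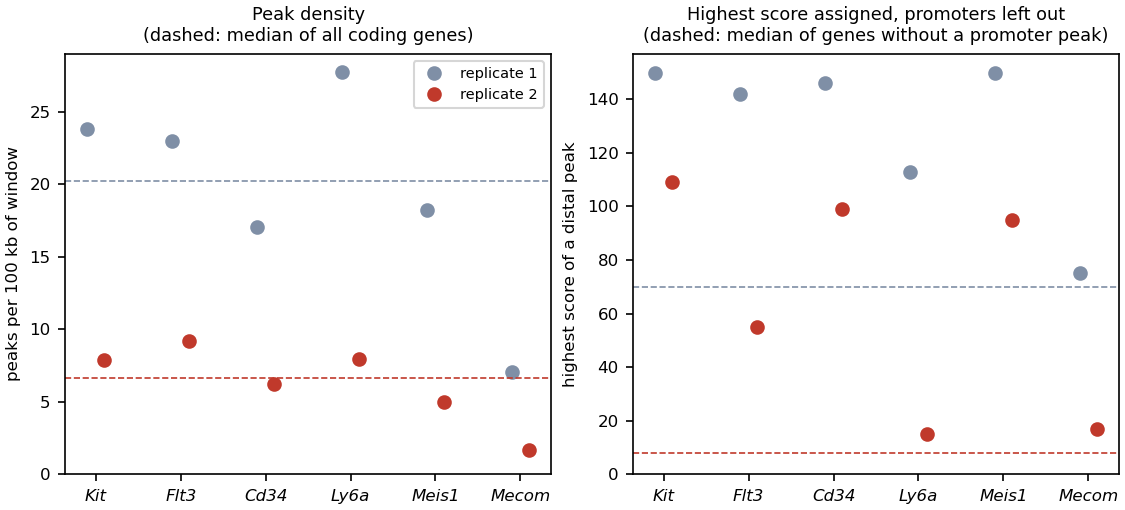
Peaks per 100 kb of window (left) and the highest score of a peak assigned to the gene outside promoters (right), for each of the 6 genes. Grey points are replicate 1 and red points replicate 2, each a single list with no error bar; dashed lines are the medians of all protein-coding genes (left) and of genes with no promoter peak (right). Kit, Cd34 and Meis1 have replicate 2 scores of 109, 99 and 95 on the right. Genes with no assigned peak enter the medians on the right with the lowest value. The dashed replicate 2 line there is at 8 and does not apply to Meis1, which has promoter peaks; the median over all genes is 27, and Mecom has the lowest densities on the left.

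Sharing between the lists was close to that of all peaks. Of the 145 replicate 2 peaks, 137 were overlapped by a replicate 1 peak by at least 1 bp, or 94.5% (Wilson 95% interval 89.5% to 97.2%), and the share over the whole list was 94.6%. In the other direction 141 of 458, or 30.8% (26.7% to 35.2%), were overlapped, against 30.2% of the whole list. Both shares of the whole lists lie inside the intervals, which cover counting error over peaks only. Median scores in the windows were 77 and 36, against 73 and 32 over all peaks. Window peaks lay at a protein-coding promoter of any gene in 5.90% of cases in replicate 1 and 10.3% (6.37% to 16.4%) in replicate 2, against 12.3% and 21.2% of all peaks.

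**Figure D3:**
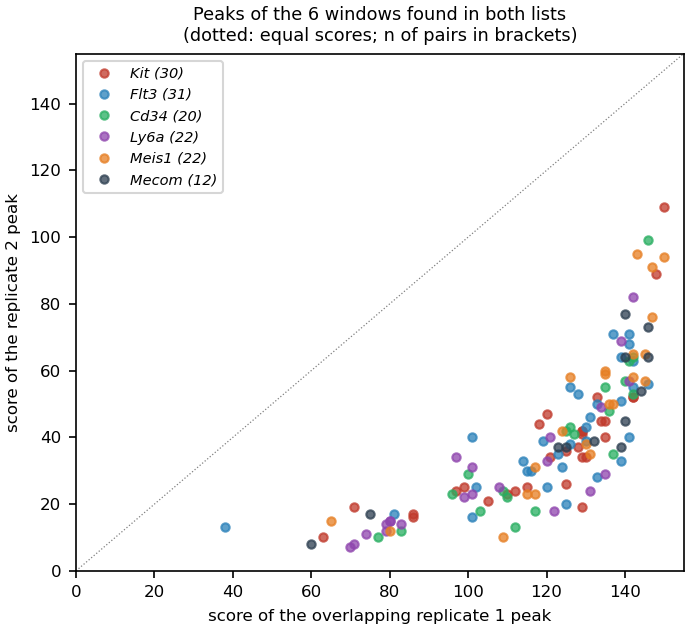
Scores of the window peaks found in both lists. Each point is a replicate 2 peak, with its score on the vertical axis against that of the overlapping replicate 1 peak on the horizontal axis, coloured by gene; the number of pairs is in the legend and the dotted line marks equal scores. Every point lies below the line, and no point lies above the Kit peak at 150 and 109 on either axis.

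The share of window peaks with GATAA was close to that of all peaks. Searched on either strand in the 150 bp around the peak centre, it occurred in 44 of 145 replicate 2 peaks, or 30.3% (23.4% to 38.3%), against 27.7% of all replicate 2 peaks, and in 24.9% against 24.4% in replicate 1. With GATA preceded by A or T and followed by A or G the replicate 2 share was 41.4% (33.7% to 49.5%), against 33.4% of all peaks, which lies just outside that interval, and in replicate 1 it was 30.6% against 30.6%. The 6 genes differed in their GATAA shares. In replicate 2 the word GATAA was found in 11 of 22 Meis1 peaks, or 50% (30.7% to 69.3%), in 12 of 30 Kit peaks (40%, 24.6% to 57.7%) and in 7 of 20 Cd34 peaks. The share was lowest for Flt3, at 4 of 34, or 11.8% (4.67% to 26.6%). Mecom had 4 of 15, or 26.7%, near the share of all peaks. Replicate 1 gave 37.5% (27.7% to 48.5%) for Meis1, 26.4% for Kit, 16.5% (10.1% to 25.8%) for Flt3 and 11.1% for Mecom, against 24.4% of all peaks. Kit was thus near the share of all peaks in replicate 1, and Mecom in replicate 2. Over 6 genes and 10 motifs some intervals will miss the share of all peaks, and no test was run.

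The composite of CTG, 7 to 9 bases and GATA, which overlaps GATA words, was found in 6 of 30 Kit peaks, or 20% (9.51% to 37.3%), against 7.66% of all replicate 2 peaks. In replicate 1 it was found in 9.89% of Kit peaks (5.29% to 17.7%), against 6.54%. The other 5 windows held 4 such replicate 2 peaks together. The CTCF consensus, bound by a factor that anchors chromatin loops, was found in 7 of 24 Ly6a peaks, or 29.2% (14.9% to 49.2%), in 4 of 34 Flt3 peaks and in none of the other 4 windows, against 4.74% of all replicate 2 peaks. Of the 7 Ly6a peaks, 2 overlapped each other, and whether they hold the same match was not examined. The 7 peaks scored 40, 34, 15, 15, 14, 8 and 7, against a median of 32 over all replicate 2 peaks. In the Ly6a window 65.8% of 32-base words were unique, the lowest share of the 6 windows. The Ly6a share in replicate 1 was 10.7% (5.74% to 19.1%), against 2.40%. Replicate 1 peaks with a match also overlapped each other, at 21.7 kb and at 62.7 kb upstream of a Ly6a start, so peaks outnumber sites in that share.

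**Figure D4:**
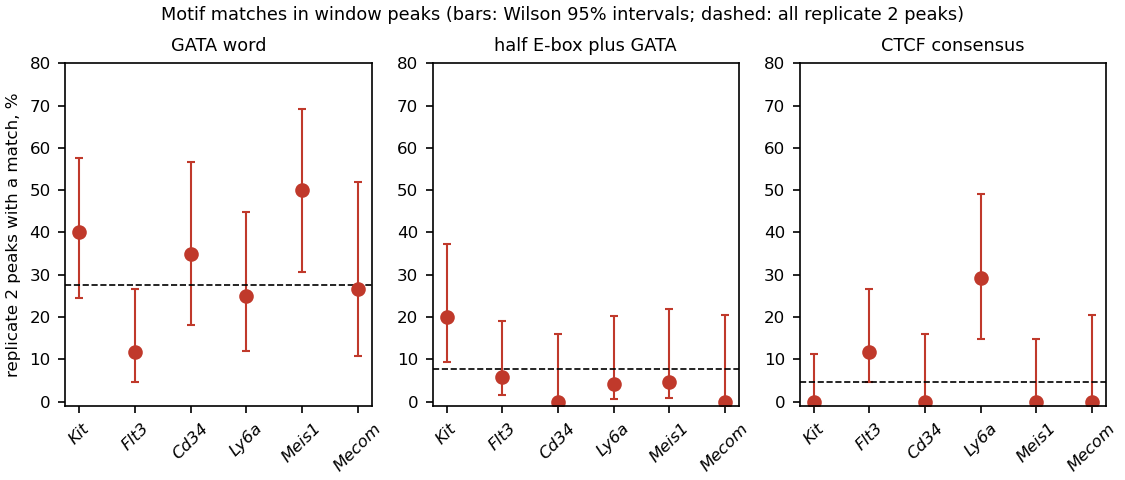
Percent of replicate 2 peaks in each gene's window with a match to GATAA (left), to CTG followed by 7 to 9 bases and GATA (middle) and to the CTCF consensus (right). Points are shares, bars are Wilson 95% intervals over peaks, and dashed lines are the shares over all replicate 2 peaks. Meis1 has the highest GATAA share, 50%, Kit the highest composite share, 20%, and Ly6a the highest CTCF share, 29.2%.

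For the other motifs the replicate 2 shares were as follows. ETS words (AGGAAG) were found in 44.8% of window peaks, against 40.1% of all peaks, E-boxes (CANNTG) in 51.0% against 53.1%, RUNX words (TGTGGT) in 11.7% against 15.5%, AP-1 words (TGANTCA) in 8.28% against 8.70%, and the MEIS word TGACAG in 14.5% against 11.8%. ETS went the other way in replicate 1, with 33.0% (28.8% to 37.4%) against 37.2%. KLF words (CCNCNCCC) were found in 15.9% (10.8% to 22.7%) against 24.1% in replicate 2, and in 15.3% (12.3% to 18.9%) against 18.1% in replicate 1, where the share of all peaks lies inside the interval. Window peaks also lay at promoters less often, as given above, and the part of that in the KLF share was not tested.

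Most listed genes that act with KIT, FLT3, MEIS1 or MECOM had promoter peaks. In the list of KIT and FLT3 ligands and signalling proteins, 18 of 20 genes had a promoter peak in each list, against the 58.3% and 49.4% of all genes. Among genes with a CpG ratio of at least 0.6 the shares were 81.2% and 75.9%, and the CpG ratio of the listed genes was not examined. The adaptor genes Shc1 (150 and 127) and Grb2 (144 and 91), the kinase gene Akt1 (150 and 117) and the ubiquitin ligase gene Cbl (150 and 83) scored highest in replicate 2. Flt3l, the ligand of FLT3, scored 141 and 63. Kitl, the ligand of KIT, and Fyn, a Src family kinase, had no promoter peak in either list. Among partners and targets of MEIS1 and MECOM the count was 14 of 16 in each list, led by the homeodomain genes Pbx4 (148 and 92) and Pknox1 (145 and 77), the histone methyltransferase gene Suv39h1 (144 and 83) and Hif1a (139 and 72), with Prdm16 and Hoxa7 lacking a peak.

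Other stem cell genes were mixed. Promoter peaks were found for 14 of 20 further stem cell transcription factors in replicate 1 and for 13 in replicate 2, with Spi1 at 148 and 123, Myc at 145 and 86, Lyl1 at 149 and 80 and Runx1 at 142 and 73. The Spi1 value was not examined further here. Of 20 further surface proteins, 15 and 12 had a peak, led by the cytokine receptor subunit gene Csf2rb (147 and 73), Cd48 (143 and 68), the chemokine receptor gene Cxcr4 (138 and 60) and Ctnnal1 (142 and 58). These counts are read against the same background of 58.3% and 49.4%. Gata2 and Prdm16 are counted both here and among the partners and targets of MEIS1 and MECOM.

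Marker lists set against the label of the line gave 14 and 12 of 15 erythroid genes with a promoter peak. Slc4a1 lacked a peak in both lists, and Alas2 and Hba-a1 had one in replicate 1 alone, with scores of 85 and 71. Erg, Esam, Eng and Tek of the endothelial list also stand in the stem cell lists above. Mast cell markers, which share KIT, gave 11 and 7 of 15, with Ms4a2, Tpsb2, Cma1 and Mcpt4 lacking a peak. Endothelial markers, some of which share CD34, gave 5 and 3 of 15, and lymphoid and dendritic markers gave 7 and 4 of 15. Against the 58.3% and 49.4% of all genes, the erythroid counts were higher, the mast cell count was higher in replicate 1 and lower in replicate 2, and the other counts were lower.

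Genes with the most similar layout of peaks were found by the distance between 6 log2 counts, those at the promoter, in the rest of the gene and in the rest of the window in each list. For Kit these were Tanc2 and Cib4, at distances of 0.177 and 0.189, and for Flt3 Ly86 and Ifitm10, at 0.228 and 0.263. Cd34 was most like Itih2 (0.087) and Msantd3 (0.237), and Ly6a most like Dnajb7 (0.059) and Eps8l3 (0.070). Meis1 was nearest to Ccdc88c (0.501) and Gm20498 (0.560), and Mecom to Mylk (0.433) and Epb41l4a (0.492). The distances for Meis1 and Mecom were larger than those for Kit, Flt3, Cd34 and Ly6a. Likeness here is of counts only, over 2 lists.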

How the data were processed

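The authors deposited called regions and no reads or read counts were used, so the depth is unknown and no interval here covers sequencing depth. Each deposited peak of 150 bp or less carries a score of 1 to 150. The hotspot values the authors deposited, from 1.30 to a cap of 100, are read as −log10 q-values as is usual for that format, and hotspots served only as positions and widths. Per the deposited notes, replicate 1 regions were called on an alignment merged from 2 libraries and replicate 2 regions on that of 1 library, and the build is mm10 per the labels. The aligner and peak caller are not given in the sources used here.

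After 67 and 7 repeated lines were dropped, peak centres were placed on GENCODE M21 basic genes of GRCm38, with promoters of 1000 bp either side of a protein-coding start and windows of 150 kb either side of the gene. Peaks outside chromosomes 1 to 19, X and Y entered overlaps only. The motifs spelled out in the results, and as an alternative GATA preceded by A or T and followed by A or G, were searched on both strands of the 150 bp around each centre. The GATA patterns overlap each other. Uniqueness is the share of 32-base words found once in the genome. Promoter sequence came from RefSeq on GRCm38.p6, where 5 of the 6 genes were matched.

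Peaks were named as every promoter peak of the 6 genes and the 5 highest replicate 2 scores of each window. From each gene list up to 4 genes with the highest replicate 2 promoter score were named, with those lacking a peak in both lists where they numbered 5 or fewer, although marker lists are given mainly as counts. Surface protein genes lacking a peak in both lists are not reported here by name. Other peaks and genes described were chosen after their values were seen. The 6 genes, the lists and the rules were chosen with earlier results of these data known. Replicate lists were described side by side with Wilson 95% intervals on shares of peaks. Scripts used numpy 2.4.6, scipy 1.17.1, numba 0.67.0, pandas 2.3.3 and matplotlib 3.10.9 under Python 3.11.15, and counting, overlap and motif code was tested on simulated data. Alternatives varied the promoter width, the window, the starts used, list length, the overlap rule, the GATA pattern, the motif window and hotspots in place of peaks.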

Additional observations from a re-analysis of the deposited data

How the results depend on the processing

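Promoters of 2500 bp gave 5 of the 6 genes a peak in replicate 1 and 2 in replicate 2, as described above, while 500 bp, the starts of all transcripts, hotspots and the higher-scoring 50% of each list left 1 in each. Leaving out either replicate left 1 gene, Meis1, with a promoter peak. Window peaks numbered 243 in replicate 1 and 83 in replicate 2 for the higher-scoring 50%, 247 and 74 with 50 kb either side, and 262 and 79 where the nearest start had to belong to the gene. At equal list length replicate 1 had 151. The shared part of replicate 2 window peaks was 100% for the higher-scoring 50%, 78.6% at equal list length and 97.9% for centres within 500 bp, and that of replicate 1 was 73.5% at equal length and 38.6% for centres within 500 bp. GATAA shares became 41.4% with the flanked GATA pattern, above its 33.4% of all peaks as given in the results, and 20.7% in 75 bp, and 24.9% without replicate 2. The share of all peaks in 75 bp is not given here, so 20.7% cannot be set against the share of all peaks over 150 bp. Of 46 alternative summary values 30 stayed within their limit (1.5 times for counts) and 16 moved, and of 54 for single genes 33 moved. A shorter list or window holds fewer peaks by construction. No paired analysis was possible because there is a single group with 1 list for each replicate. Scores are capped and depth is unknown, so weak sites missing from replicate 2 cannot be told apart from closed ones.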
